A study of Homo sapiens with 8 samples.

Results

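MYH9, MYH10 and MYH14 encode the heavy chains of non-muscle myosin IIA, IIB and IIC, and binding of the RNA-binding protein G3BP1 was mapped on their transcripts in HEK293T, an established line of human kidney cells of embryonic origin. The genes were chosen by family and by the peaks seen in the deposited lists: a peak was a member if it lay inside the gene's window, on the gene's strand, in hg19. The windows were chr22:36677300-36784100 (minus strand) for MYH9, chr17:8377500-8534100 (minus strand) for MYH10 and chr19:50691400-50813900 (plus strand) for MYH14. They held 60 of the 4346 deposited peaks, 57 of 2925 in the PDS list and 3 of 1421 in the Ctrl list. Because the peaks themselves chose the genes, counts and enrichments are given as a description, without a test.

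Binding was measured by seCLIP, an assay that fixes RNA to bound protein with UV light, pulls G3BP1 down with an antibody (IP) and sequences the attached RNA next to an input library that saw no antibody. Of the 8 libraries, 2 IP and 2 input libraries came from HEK293T cells exposed to PDS at 20 µM, starting 12 h ahead of crosslinking, and 2 IP and 2 input libraries came from untreated HEK293T cells (Ctrl). The labels do not spell out PDS, which in work on guanine quadruplexes usually means pyridostatin, a small molecule that binds these structures. The authors combined both replicates of a condition into 1 peak list, so each peak has 1 log2 fold of IP over input and 1 −log10 p, with no SD and no value per replicate.

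Non-muscle myosin II is a motor that pulls on actin filaments. Heavy chains pair through a long coiled-coil tail, bind essential and regulatory light chains at the neck, and assemble tail to tail into bipolar filaments. The motor drives contraction of the cell cortex, cell division, adhesion and migration, and the heavy chain, which carries both motor and tail, has a long coding sequence. G3BP1 is a core protein of stress granules, the RNA and protein assemblies that form when translation initiation stops, and a guanine quadruplex is a fold in which guanines stack in planar quartets.

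All 3 genes carried peaks in the PDS list, whereas 1 of them, MYH9, carried peaks in the Ctrl list. MYH9 had 33 PDS peaks against 3 Ctrl peaks, covering 1555 nt in PDS and 213 nt in Ctrl. MYH10 had 17 PDS peaks over 960 nt and 0 Ctrl peaks. MYH14 had 7 PDS peaks over 750 nt and 0 Ctrl peaks. The members made up 1.95% of the PDS list and 0.211% of the Ctrl list. For scale, peaks of both lists were linked into 1192 loci wherever the gap on 1 strand was no longer than 10000 nt, and of these loci 44.0% held PDS peaks and no Ctrl peak. Among the 95 loci with at least 7 PDS peaks, a minimum set after seeing the myosin counts, 13 (13.7%) held no Ctrl peak, and the MYH14 locus and the larger MYH10 locus were among these 13. A peak missing from a list means that no stretch there passed the authors' limits, since both lists hold only peaks with a log2 fold above 3, and it does not show that G3BP1 was not bound.

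**Figure D1:**
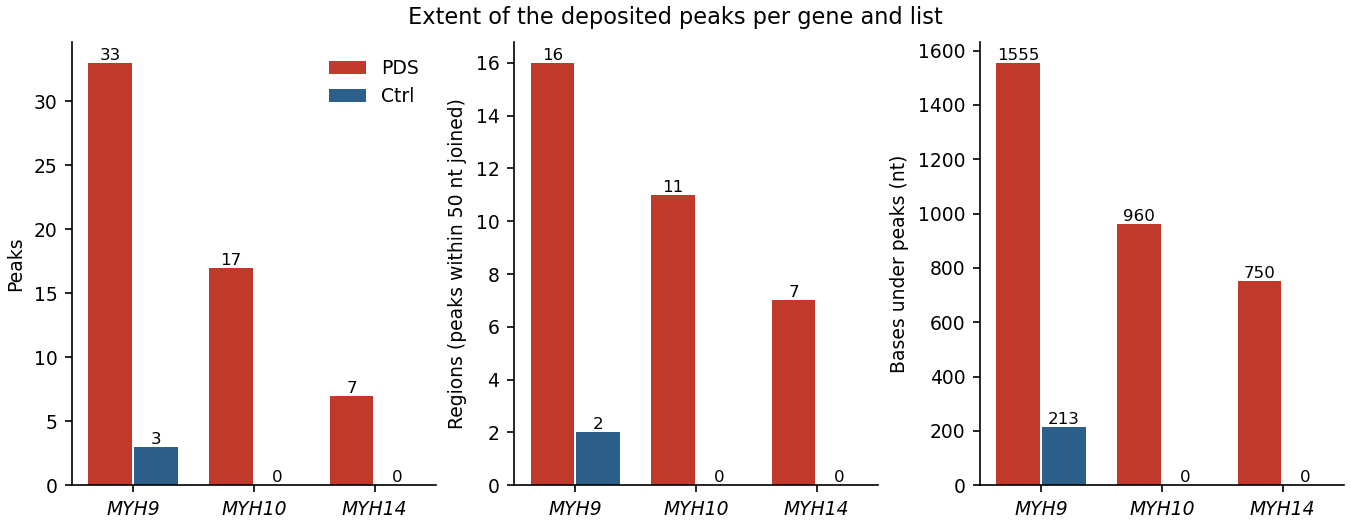
Peaks, regions (peaks within 50 nt joined) and bases under peaks for each gene, in the PDS list (red, left bar) and the Ctrl list (blue, right bar), as counts on axes that start at 0. MYH9 has 33 PDS peaks, MYH10 17 and MYH14 7, and of the 3 genes MYH9 alone has Ctrl peaks, 3 in number.

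Neighbouring peaks can be pieces of 1 bound stretch, so same-strand peaks within 50 nt were also joined into regions. MYH9 then had 16 PDS regions and 2 Ctrl regions, MYH10 had 11 PDS regions and MYH14 had 7. In MYH9, 11 of 33 PDS peaks began exactly where another peak ended, as did 5 of 17 in MYH10 and 0 of 7 in MYH14. Over the whole lists this held for 23.7% of PDS peaks and 11.1% of Ctrl peaks, and for 0 of the 3 Ctrl peaks of MYH9. PDS peaks narrower than 20 nt numbered 11 of 33 in MYH9, 4 of 17 in MYH10 and 0 of 7 in MYH14, against 14.7% of all PDS peaks. The median peak width was 40 nt in MYH9, 65 nt in MYH10 and 112 nt in MYH14, against 63 nt over the PDS list. After joining, the median region width was 90 nt in MYH9, 77 nt in MYH10 and 112 nt in MYH14, against 87 nt over the 2036 regions of that list.

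Enrichment differed in level among the 3 genes. The log2 fold of MYH9 peaks in PDS had a median of 3.89 and ran between 3.26 and 4.79. MYH10 peaks had a median of 3.45, between 3.12 and 3.76. MYH14 peaks had a median of 3.97, between 3.48 and 4.97. On a linear scale these medians correspond to 14.8-fold, 10.9-fold and 15.7-fold over input. The median over the PDS list was 3.59 (quartiles 3.26 and 4.06), so that MYH9 and MYH14 lay above it and MYH10 below it. A log2 fold of at least 4 was reached by 13 of 33 MYH9 peaks, 0 of 17 MYH10 peaks and 3 of 7 MYH14 peaks, against 27.6% of all PDS peaks. The 3 Ctrl peaks of MYH9 had log2 folds of 3.09, 3.12 and 3.30, below the Ctrl list's median of 3.52, and none of them reached 4, against 22.0% of all Ctrl peaks.

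**Figure D2:**
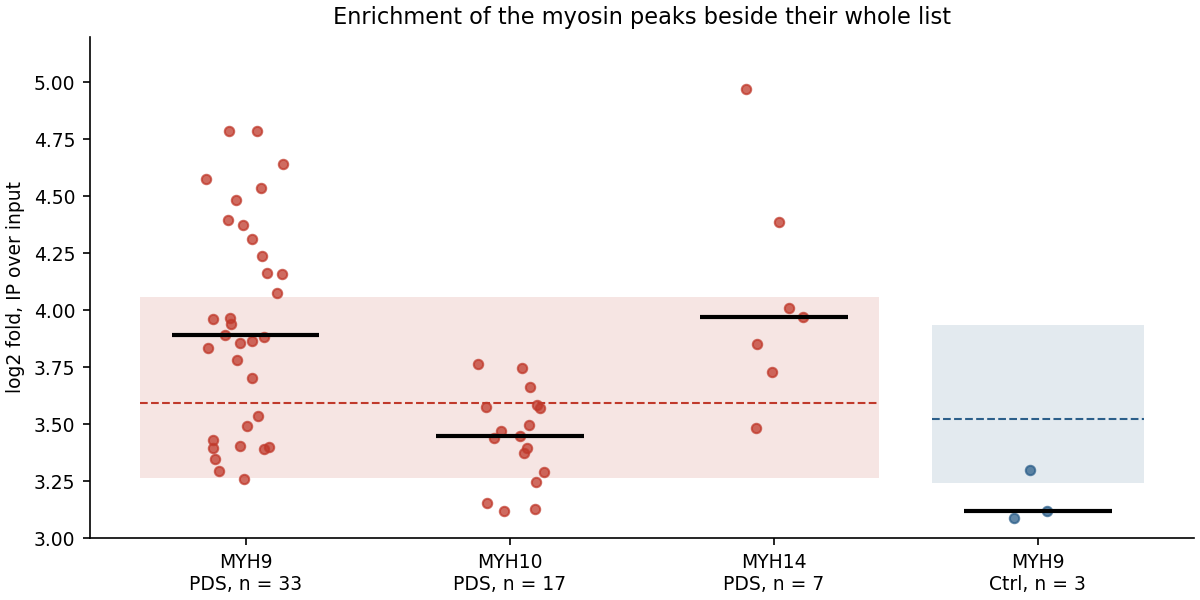
The log2 fold of IP over input (vertical axis) of each myosin peak, by gene and list; black bars are medians, shaded bands the quartiles of the whole list and dashed lines its median. MYH10 peaks end at 3.76, MYH9 and MYH14 reach 4.79 and 4.97 in PDS, and the 3 Ctrl peaks lie below the median of their list, 1 of them inside the quartile band.

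MYH9, the heavy chain of myosin IIA, is the isoform altered in a group of inherited platelet disorders. Its peaks were confined in both lists to the 3′ part of the window. PDS peaks spanned chr22:36680454-36700146 and Ctrl peaks chr22:36685189-36700157, which is 18.4% and 14.0% of the window's length. Which of these peaks are exonic or intronic, or lie in a UTR, was not analysed here, because an hg19 annotation was not used. The nearest peaks of the same strand outside the window lay 5701 kb below it and, above it, 6232 kb away in the PDS list and 2368 kb away in the Ctrl list. No peak of either list therefore bordered the window.

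Joined over gaps of up to 1000 nt, a spacing chosen after the peaks were seen, the 33 PDS peaks of MYH9 formed 7 clusters. Every MYH9 peak with a log2 fold of at least 4 lay in 2 of them. The first, chr22:36684354-36685343, packed 12 peaks into 990 nt and covered 515 nt. The second, chr22:36681733-36682810, held 7 peaks over 1078 nt and covered 218 nt. The 19 peaks of these clusters had a median log2 fold of 4.24 (3.70 to 4.79). The other 14 peaks, in 5 clusters, had a median of 3.42 (3.26 to 3.89), so the groups overlapped between 3.70 and 3.89. Since the clusters were picked for their high peaks, this difference is not tested.

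**Figure D3:**
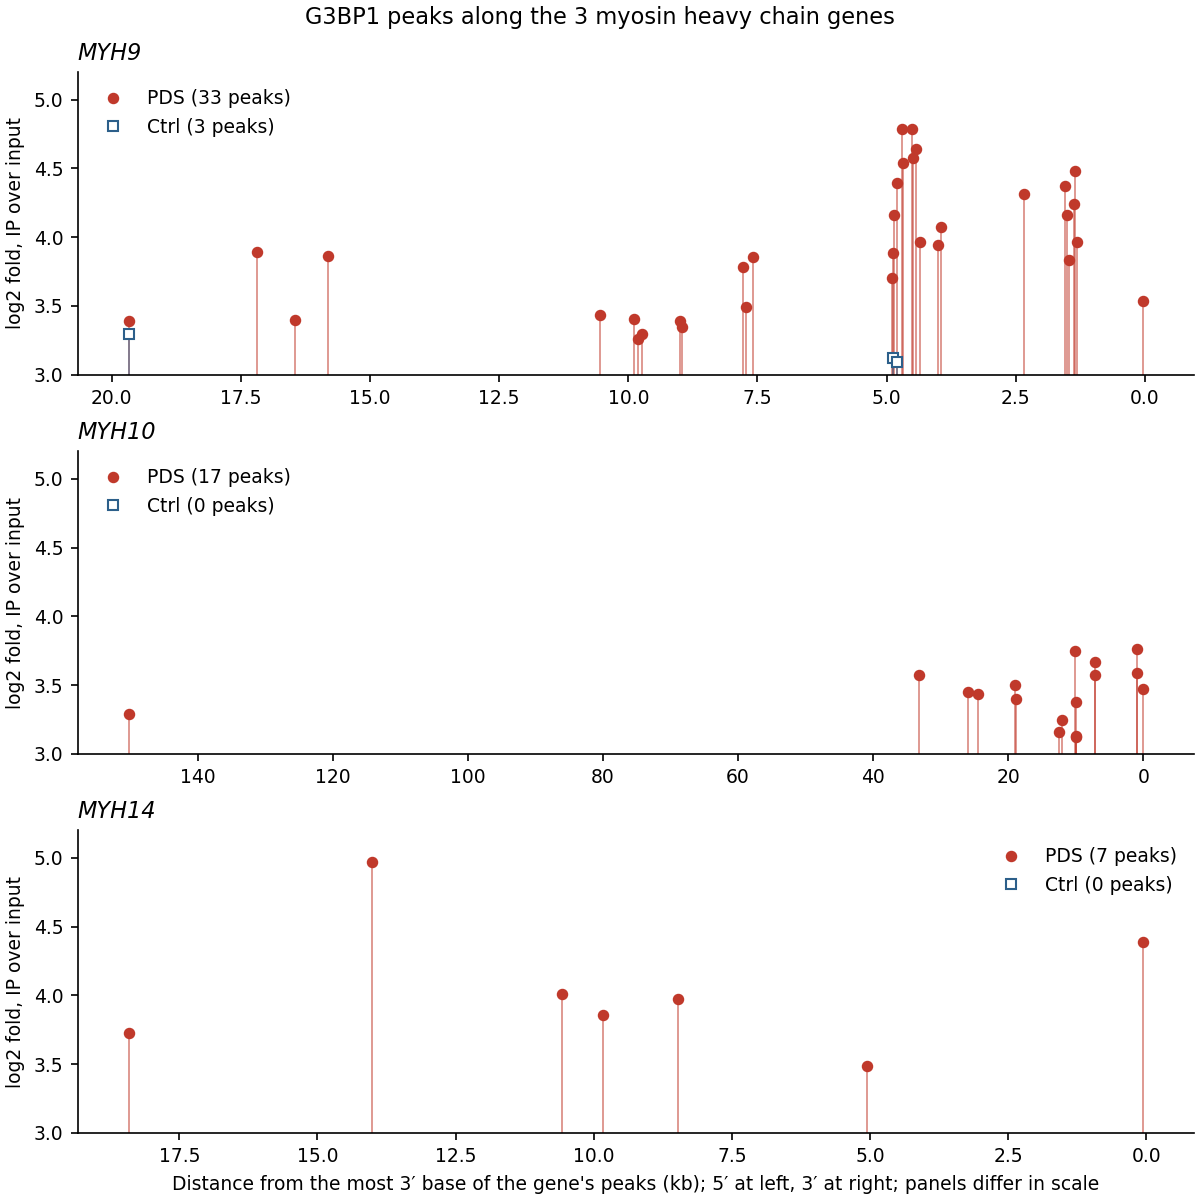
Each deposited peak (point) of the 3 genes at its distance from the gene's most 3′ peak base (kb, 5′ at left) and its log2 fold of IP over input; red circles are PDS, open blue squares Ctrl. The high MYH9 peaks fall in 2 clusters, MYH10 peaks stay at or below 3.76 with 1 peak far upstream, and the 7 MYH14 peaks stand apart from each other.

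The 5 most enriched MYH9 peaks all lay in the 990-nt cluster. They were chr22:36685146-36685181 (log2 fold 4.79, or 27.6-fold, −log10 p 30.3), chr22:36684952-36684985 (4.79, −log10 p 40.5), chr22:36684847-36684915 (4.64, −log10 p 68.0), chr22:36684916-36684951 (4.58, −log10 p 51.2) and chr22:36685133-36685145 (4.54, −log10 p 23.6). The first of them ranked 191st of 2925 in the PDS list. Its locus ranked 4th of 1192 by number of PDS peaks, tied at 33 with loci at chr20:17595394-17617322 and chr1:226549713-226595773, and 4th by bases under PDS peaks. The peak at chr22:36684354-36684454, at the 3′ end of the same cluster, had a log2 fold of 4.08 and the deposited −log10 p of 400. That value is a ceiling given to 82 PDS peaks and 8 Ctrl peaks, with the next value in the PDS list at 87.9, so it ranks nothing beyond the ceiling.

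The remaining MYH9 clusters were weaker. The widest peak, chr22:36697585-36697708 (124 nt), had a log2 fold of 3.89 and a −log10 p of 51.4, and it shared a cluster with chr22:36696207-36696310 (3.86) and the 30-nt peak chr22:36696897-36696926 (3.40). The lowest cluster was chr22:36689399-36691041, where 6 peaks ran between 3.26 and 3.43. Between it and the 990-nt cluster lay 3 peaks at chr22:36688032-36688259, with log2 folds of 3.49 to 3.85. The most 5′ PDS peak was chr22:36700102-36700146 (3.39) and the most 3′ was chr22:36680454-36680529 (3.53). Enrichment along MYH9 was thus uneven and did not climb steadily towards either end.

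The 3 Ctrl peaks of MYH9 each overlapped a PDS peak by at least 1 nt, a share of 3 of 3, against 51.5% of all Ctrl peaks. From the other side, 5 of 33 MYH9 PDS peaks overlapped a Ctrl peak, against 30.6% of all PDS peaks, and 28 did not. At the 5′ site, the PDS peak chr22:36700102-36700146 lay inside the Ctrl peak chr22:36700093-36700157, with log2 folds of 3.39 in PDS and 3.30 in Ctrl and −log10 p of 16.6 in PDS and 10.0 in Ctrl. At the 5′ end of the dense cluster, the PDS peak chr22:36685193-36685311 met the Ctrl peak chr22:36685189-36685306 over 114 nt, their midpoints 4.5 nt apart. Here the log2 fold was 4.40 in PDS and 3.09 in Ctrl, a difference of 1.31, and the −log10 p was 81.8 in PDS and 12.5 in Ctrl. The neighbouring Ctrl peak chr22:36685315-36685344 (3.12) was met by 3 short PDS peaks of 11, 17 and 4 nt with log2 folds of 4.16, 3.88 and 3.70.

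**Figure D4:**
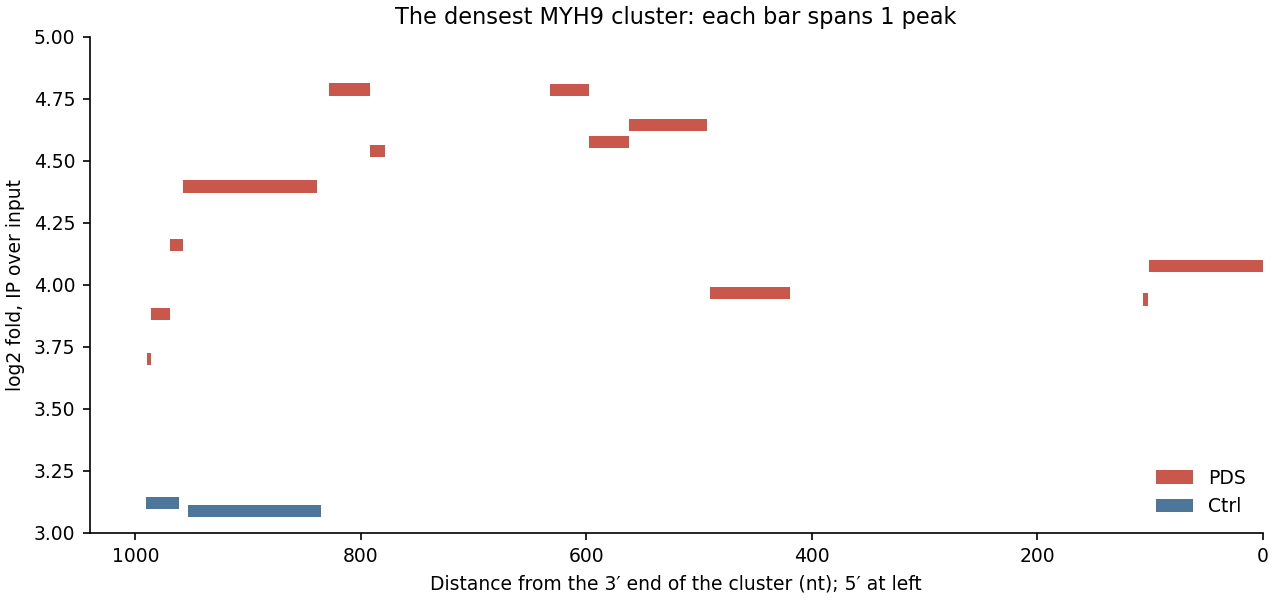
The densest MYH9 cluster, drawn by distance from its 3′ end (nt, 5′ at left) and log2 fold of IP over input; each bar spans 1 peak, red for PDS and blue for Ctrl. Both Ctrl peaks, at 3.09 and 3.12, sit at the 5′ end under PDS peaks of 3.70 to 4.40, and the rest of the cluster has PDS peaks alone.

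Over the series, 410 pairs joined exactly 1 PDS peak to exactly 1 Ctrl peak, and the PDS log2 fold was the higher in 62.0% of them. The median difference, PDS minus Ctrl, was 0.15 (quartiles −0.22 and 0.63). The MYH9 pair in the dense cluster, with 1.31, ranked 18th of 410, and the 5′ pair, with 0.10, ranked 225th. Of the 2 MYH9 sites, 1 thus had a larger difference than most pairs of the series and 1 did not. The Ctrl peak of the first, at 3.09, lay near the lists' limit of 3, while the Ctrl median over the 410 pairs was 3.55. Since both peaks of a pair had to pass that limit, a pair with so low a Ctrl value had little room for a lower PDS value. Its rank is read with that limit in mind. With 1 combined value per site and condition, neither difference could be set against the spread between replicates.

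MYH10, the heavy chain of myosin IIB, which is prominent in neurons and the embryonic heart, had its 17 PDS peaks in 11 regions. All but 1 lay at chr17:8383768-8416932, in the 3′ part of the window. The exception, chr17:8533977-8534040 (log2 fold 3.29, −log10 p 15.9), lay 60 nt inside the 5′ edge of the window and 117 kb upstream of its nearest neighbour. The most enriched peaks were chr17:8384657-8384726 (3.76), chr17:8393772-8393855 (3.75), chr17:8390909-8390913 (3.67), chr17:8384642-8384656 (3.59) and chr17:8416856-8416932 (3.57). The first of these ranked 1139th of 2925 in its list, so MYH10 was marked by many modest peaks. No MYH10 peak had a ceiling p, and the −log10 p ran between 10.3 and 31.9.

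Along the genome, MYH10 regions were spread more widely than those of MYH9. The median gap between neighbouring regions was 4099 nt, against 689 nt in MYH9 and 3312 nt in MYH14. These gaps may include introns, and spacing along the mRNA was not analysed. The fullest region, chr17:8393658-8393855, held 4 peaks with log2 folds of 3.12 to 3.75. The widest peak, chr17:8396154-8396279 (126 nt), had a log2 fold of 3.16 with a −log10 p of 31.9, the highest −log10 p of the gene beside one of its lowest folds. The most 3′ peak was chr17:8383768-8383819 (3.47). In the Ctrl list the nearest peak of the same strand lay 301 kb below the window.

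MYH14, the heavy chain of myosin IIC, a gene of inherited deafness, had the fewest peaks and the highest single one. The peak chr19:50775902-50775988 had a log2 fold of 4.97, or 31.3-fold over input, with a −log10 p of 31.4, and ranked 113th of 2925. It was followed by chr19:50789830-50789951 (4.39), the most 3′ peak, and by chr19:50779297-50779440 (4.01), the widest at 144 nt. The others were chr19:50781423-50781534 (3.97), chr19:50780080-50780154 (3.85), chr19:50771476-50771588 (3.73), the most 5′, and chr19:50784851-50784947 (3.48). Each of the 7 was a region of its own, and none was narrower than 75 nt. They spanned 18476 nt, 15.1% of the window, and the −log10 p ran between 13.3 and 31.4, within the range of MYH10 despite the higher folds. Neither list held a same-strand peak within 103 kb of the MYH14 window.

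How the myosin genes stood among the other loci was described by the number of peaks in each list. Such counts depend on how bound stretches were split into peaks, and the loci were not ranked by joined regions. Joined within 50 nt, the MYH9 peaks made 16 PDS and 2 Ctrl regions. MYH9, with 33 PDS peaks and 3 Ctrl peaks, had an excess of PDS over Ctrl peaks of 30, the largest of the 1192 loci, tied with a locus at chr9:131339139-131381216 (plus strand) that held 32 PDS and 2 Ctrl peaks. That locus was also the closest to MYH9 in both counts, by the sum of absolute differences, and was followed by chr20:17595394-17617322 (33 PDS and 10 Ctrl peaks) and chr6:151670538-151674102 (24 PDS and 3 Ctrl peaks). Closest to MYH10, counted over its whole window of 2 loci (17 PDS and 0 Ctrl peaks), was chrX:53426608-53440208, with 17 PDS and 2 Ctrl peaks. This order depends on that choice. For the larger MYH10 locus alone (16 PDS and 0 Ctrl peaks), several other loci tied as the closest. They were chr2:74588425-74605372 (16 PDS and 2 Ctrl peaks), chr11:61906189-61916251 (15 PDS peaks and 1 Ctrl peak) and a locus with 14 PDS and 0 Ctrl peaks. The counts of MYH14 were met exactly by chr12:6976751-6979278, with 7 PDS and 0 Ctrl peaks, and 16 loci, this one included, lay within 1 peak of MYH14. Of the 8 loci with at least 30 PDS peaks, the Ctrl counts ran between 2 and 43.

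**Figure D5:**
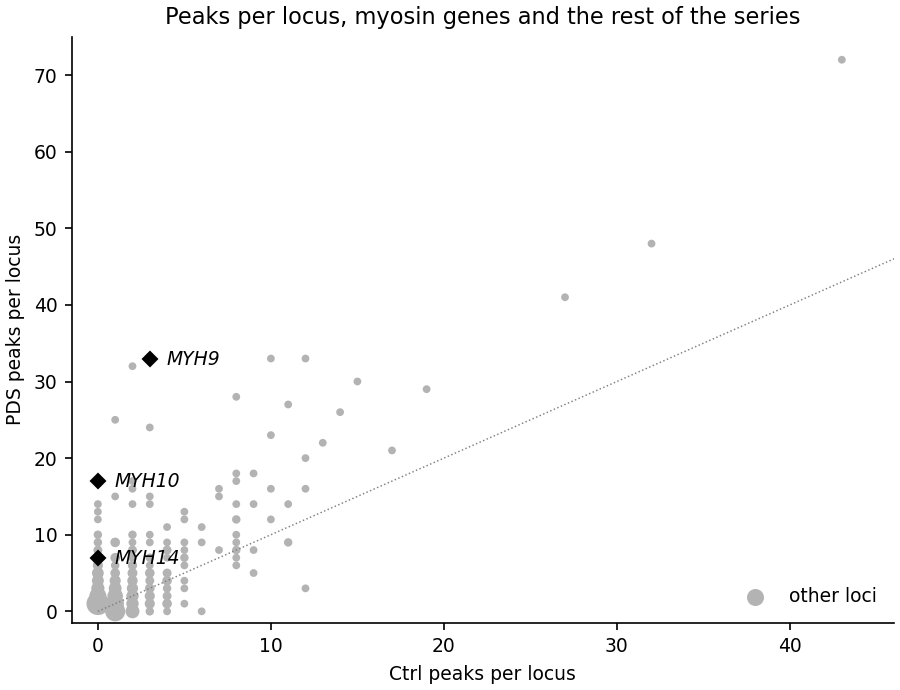
PDS peaks (vertical axis) against Ctrl peaks (horizontal axis) of each locus; grey points are other loci, larger where more loci share the counts, diamonds are the 3 myosin genes (MYH10 as its window, which spans 2 loci) and the dotted line marks equal counts. MYH9 (33 and 3), MYH10 (17 and 0) and MYH14 (7 and 0) lie along the left edge, beside other loci with few Ctrl peaks.

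The PDS list was 2925 peaks long against 1421 in Ctrl, and its median −log10 p was 17.8 against 11.9 in Ctrl; the part of this in the myosin counts was not tested. When the PDS list was shortened to its 1421 most enriched peaks, 23 MYH9, 3 MYH10 and 6 MYH14 peaks were left, against 3, 0 and 0 in Ctrl. Shortened instead by −log10 p, it left 30 MYH9, 9 MYH10 and 3 MYH14 peaks. By construction, either cut keeps 1421 of the 2925 PDS peaks, so a loss of this order is shared by the list as a whole. Cut by enrichment, MYH10 kept 3 of 17 peaks, a smaller share than the list, while MYH9 kept 23 of 33 and MYH14 6 of 7, larger shares. Cut by p, MYH9 kept 30 of 33, and MYH10 with 9 of 17 and MYH14 with 3 of 7 stayed near the share of the list.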

How the data were processed

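The 8 libraries (IP and input, with and without PDS, 2 replicates each) enter through 2 deposited peak lists. The submitters' processing notes name UMI-tools, cutadapt and STAR, and the build hg19. The peak caller, its limits and the way to combine replicates were not given in the sources used here. In the deposited lists the fourth column was read as −log10 p and the fifth as log2 fold of IP over input, both inferred from the values. A −log10 p of 400 was read as a ceiling. Starts were taken as counted from 0, and coordinates are printed from 1. Read totals were not analysed here, so depth is unknown. Nothing says whether replicates were separate cultures.

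Peaks inside each window, overlaps (at least 1 nt, same strand), regions and loci were computed in python 3.11.15 with pandas 2.3.3, and the code was tested on simulated data. In each gene and list, the peaks named first were the 5 most enriched, the widest and the most 5′ and 3′ (all, where there were at most 6); others were chosen after their values were seen. The 3 nearest loci were ranked by peak counts, ties by bases under PDS peaks. The genes, windows and lists were chosen with earlier results of these data known. Other actomyosin genes and the sequences under peaks were not analysed here, since the gene table at hand is of another build. Alternatives were stricter limits, merging, equal list lengths and other overlaps.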

Additional observations from a re-analysis of the deposited data

How the results depend on the processing

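Of 61 alternative values, 42 stayed within 1.5 times of the reported count or within the spread of the gene's peaks for medians, 22 of them zeros that stayed 0, and 19 moved. All 22 zeros belong to MYH10 and MYH14, whose windows held no Ctrl peak. They could not move under any alternative and say nothing about stability. Some of the other unmoved values were fixed as well. No PDS peak of the 3 genes had a −log10 p below 10, each MYH14 peak was already a region of its own, and all 3 Ctrl peaks of MYH9 were already shared. The alternative of joining within 1000 nt was chosen after seeing the data. With a log2 fold of at least 4, peaks numbered 13 in MYH9, 0 in MYH10 and 3 in MYH14 for PDS, and 0 in MYH9 for Ctrl. Bases under peaks were then 562, 0 and 353 nt for PDS and 0 nt for MYH9 in Ctrl, and 0 MYH9 peaks were shared from either side. Joining within 50 nt left 16 MYH9 and 11 MYH10 regions in PDS, and within 1000 nt left 7 and 9 clusters. With the PDS list shortened to 1421 peaks by log2 fold, MYH10 had 3 peaks over 159 nt. By −log10 p, MYH10 had 9 peaks and MYH14 had 3. With a reciprocal overlap of 50%, 3 MYH9 PDS peaks were shared. For MYH9, peak counts were higher in PDS than in Ctrl under every alternative run on them, but the gene was chosen on these same peaks. Some of these outcomes were also fixed. Its highest Ctrl log2 fold was 3.30, so a limit of 4 could leave no Ctrl peak. Its lowest −log10 p in PDS was 12.8, so a limit of 10 could remove no PDS peak. MYH10 and MYH14 had 0 Ctrl peaks, and no alternative could add one. Their PDS counts could therefore only be higher or tie at 0, as MYH10 did at a log2 fold of at least 4. Stricter limits leave fewer peaks by construction; causes were otherwise not tested. No paired analysis was possible because each peak has 1 value for both replicates, and no replicate could be left out for the same reason. Depth is unknown, so an absent peak cannot be told apart from one with too few reads.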
